A study of Mus musculus with 6 samples.

Results

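The genes described here encode mucin-type and terminal glycosylation enzymes, the Golgi transferases that start O-linked sugar chains on mucins and that extend, branch and cap the sugar chains of glycoproteins and glycolipids. They were chosen by symbol, as members of the *Galnt*, *C1galt*, *Gcnt*, *B3gnt*, *B3galt*, *B4galt*, *B4galnt*, *St3gal*, *St6gal* (with *St6galnac*), *St8sia* and *Fut* families, and 73 of the 19505 genes on the array with a single symbol belonged to them. Each of the 73 was represented by 1 probe set. Their expression was compared between luminal mammary epithelial cells sorted as Sox9-GFP high, on 3 arrays, and as Sox9-GFP low, also on 3 arrays. Both sorts came from glands of female FVB/NJ mice of about 3 months that carried 2 transgenes. One is C3(1)/Tag, in which the C3(1) promoter drives the SV40 large T antigen, a protein that inactivates p53 and RB. The other is Sox9-GFP, a reporter on a bacterial artificial chromosome that expresses GFP from *Sox9* regulatory sequence. The description of the deposited data takes the cells from 3 animals and does not say whether glands were pooled or which array came from which animal. The p-values therefore measure only the spread between these arrays.

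Mucin-type O-glycans begin when a GalNAc-transferase of the *Galnt* family attaches a single sugar to serine or threonine. The core 1 synthase C1GALT1 then adds galactose, and enzymes of the *Gcnt* family add branches. Galactosyl- and N-acetylglucosaminyltransferases lengthen the chains, and sialyltransferases and fucosyltransferases cap them. Luminal mammary cells carry such chains on membrane mucins such as MUC1 and secrete them with milk proteins, and truncated and sialylated O-glycans are well known on breast carcinoma cells.

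Values are log2 array signals, a difference is the mean of Sox9-GFP high minus the mean of Sox9-GFP low, and a difference of 1 is a doubling. Array medians lay between 5.15 and 5.21. Across probe sets the arrays of a sort correlated at 0.992 to 0.994, and arrays of different sorts at 0.979 to 0.988. A gene was called where the adjusted p from limma, over all 22206 probe sets, was under 0.05. *Sox9*, the gene whose reporter set the sort, read 14.42, 13.77 and 14.46 on the Sox9-GFP high arrays against 13.36, 12.82 and 13.44 on the Sox9-GFP low arrays (adjusted p = 0.0360 from limma). The sorts did not overlap, and the call was lost when any single array other than Sox9-GFP high 2 was left out (adjusted p = 0.0547 to 0.128 from limma). All 8 luminal markers, among them *Krt8*, *Krt18* and *Epcam*, lay above the array median on every array, and of these *Krt19* alone was called, lower by 1.65 in Sox9-GFP high cells. All 8 immune markers lay below the median on every array. *Krt17*, the single called gene of 8 basal markers, was higher by 2.09 in Sox9-GFP high cells. Its call was lost without Sox9-GFP high 1 or 3 (adjusted p = 0.108 and 0.118 from limma) and with a trended and robust variance prior (0.0699). It was also lost without both arrays numbered 1 or both numbered 3 (adjusted p = 0.0954 and 0.134 from limma). Of 6 fibroblast markers *Dcn* was lower by 2.22 and the other 5 were not called, with a list median of 0.08. The list's summed linear signal is set mostly by its brightest genes. Its log2 was 9.31 to 10.2 on Sox9-GFP high and 11.5 to 12.0 on Sox9-GFP low arrays. *Col1a1* lay above the median on all 6 arrays, *Lum* on 5, and *Col1a2*, *Col3a1* and *Pdgfrb* on none. None of 7 endothelial and 5 adipocyte markers was called, except *Eng* with the replicate block, with a difference of -0.64 (adjusted p = 0.0376 from limma). The log2 sum of the basal markers was 15.1 to 15.8 on Sox9-GFP high and 14.3 to 14.9 on Sox9-GFP low arrays. That of the adipocyte markers was 10.2 to 12.1 and 11.9 to 13.2, with overlap. The median differences of these lists were 0.02 for basal and -0.12 for adipocyte markers. The part of other cells in the results was not tested.

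In Sox9-GFP high cells 5 of the 73 enzyme genes were higher and 3 were lower than in Sox9-GFP low cells. Over all probe sets 4% were called higher and 3.2% lower. The genes that were higher encode the core 1 synthase (*C1galt1*), a branching enzyme (*Gcnt2*), a sialyltransferase that adds sialic acid to sialic acid (*St8sia6*) and 2 fucosyltransferases (*Fut1* and *Fut9*), with folds of 1.87 to 2.52. The genes that were lower encode the core 1 sialyltransferase (*St3gal1*, 7.86-fold), a GalNAc-transferase (*Galnt15*, 3.44-fold) and the sialyltransferase of galactose on N-glycans (*St6gal1*, 2.12-fold). The other 65 did not pass the test. The differences of 45 genes were positive and those of 28 were negative, with a median of 0.05 against 0.01 over all probe sets, and 79.5% of the genes differed by less than 0.5, against 80.5% of all probe sets. Below the median on every array lay 34 of the 73 genes, and 10057 of all 22206 probe sets. *Galnt5*, *B3galt1*, *B3galt5*, *B4galt4*, *St3gal2* and *Fut2*, described below, are among these 34. In a fit that blocked on the replicate number of the arrays, *Gcnt4* was called higher as well, giving 6 higher and 3 lower, where 6.32% and 4.99% of all probe sets were called higher and lower. In bulk RNA, fewer cells that express a gene and less of its RNA per cell cannot be told apart.

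**Figure D1:**
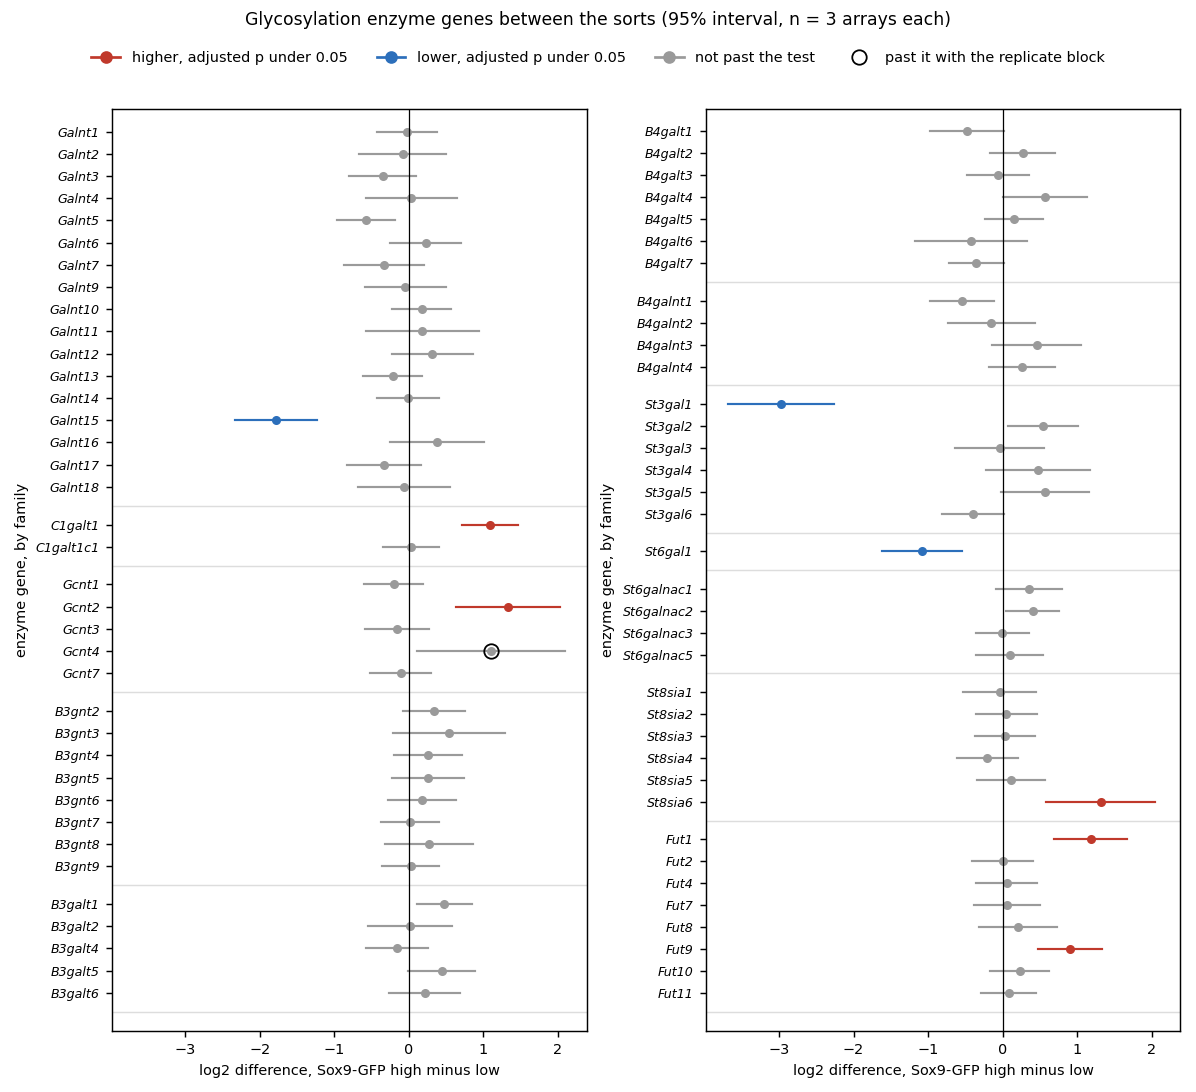
Difference in log2 value, Sox9-GFP high minus Sox9-GFP low, for each of the 73 enzyme genes (points) with its 95% interval from limma (lines), ordered by family. The 5 red points, up to 1.33 for *Gcnt2*, and the 3 blue points, down to -2.98 for *St3gal1*, passed the test. The circled *Gcnt4*, at 1.10, passed with the replicate block.

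The *Galnt* genes encode the enzymes that start mucin-type chains, and 16 of the 17 measured did not pass the test. Called were 5.88% of the family and 7.2% of all probe sets. Below the median on every array lay 8 of the 17. *Galnt15*, a member of this family, read 4.19, 3.29 and 3.89 on the Sox9-GFP high arrays and 5.47, 5.87 and 5.38 on the Sox9-GFP low arrays. The sorts did not overlap, and the gene lay below the median of every Sox9-GFP high array and above the median of every Sox9-GFP low array. The difference was -1.78 ± 0.25 (SE), or 3.44-fold lower (adjusted p = 0.00284 from limma). *Galnt5*, at 2.54, 2.53 and 2.73 on Sox9-GFP high and 2.98, 3.23 and 3.32 on Sox9-GFP low arrays, was the other gene of the family with no overlap. It did not pass (adjusted p = 0.0805 from limma), except with a trended and robust variance prior. The remaining 15 differed by -0.35 (*Galnt3*) to 0.38 (*Galnt16*), with overlapping sorts. *Galnt3*, known for glycosylating the hormone FGF23, and *Galnt10* lay at 12.18 to 13.31 on Sox9-GFP high arrays and at 12.62 to 13.34 on Sox9-GFP low arrays. Of the 73 genes, 10 had every Sox9-GFP high array above every Sox9-GFP low array and 7 had every one below, against 14.1% and 11.4% of all probe sets. In an exact permutation test of 3 arrays against 3 such a gene has p = 0.1, the smallest that test can give.

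Promoters, here the 250 bases before the start of transcription in RefSeq (GRCm38.p6), were found for 52 of the 73 genes, which have 72 starts. The promoter of *Galnt15* is shown because the gene was called lower in every fit with arrays left out.
Galnt15, chr14:32028853-32029102, + strand: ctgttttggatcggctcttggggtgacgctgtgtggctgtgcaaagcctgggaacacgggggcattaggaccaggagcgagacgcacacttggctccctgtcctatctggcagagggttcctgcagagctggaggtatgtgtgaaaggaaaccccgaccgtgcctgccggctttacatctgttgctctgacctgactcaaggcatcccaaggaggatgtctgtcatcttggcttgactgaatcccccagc
It holds none of the 3 motifs searched on both strands, which were AACAAT (SOX core), TTCNNNGAA (STAT5 site) and GCGGGAA (E2F core). These letters were in 5.56%, 5.56% and 2.78% of the enzyme genes' promoters and in 9.42%, 7.02% and 3.82% of all 32851 promoters. A match is a description of the letters and no sign that a factor binds.

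The core 1 step is served by 2 genes, and they differed in their values. *C1galt1*, the galactosyltransferase that makes core 1, read 9.59, 9.40 and 9.36 on the Sox9-GFP high arrays and 8.39, 8.23 and 8.45 on the Sox9-GFP low arrays. Every Sox9-GFP high array was at least 0.91 above the Sox9-GFP low array of the same number. The difference was 1.09 ± 0.17 (SE), a fold of 2.13 (adjusted p = 0.00436 from limma). *C1galt1c1*, the chaperone COSMC without which the core 1 synthase does not fold, read 8.53, 8.77 and 8.59 against 8.48, 8.61 and 8.70. These sorts overlapped, and the difference was 0.03 with a 95% interval of -0.34 to 0.41. The difference between the 2 genes' responses was not tested. The *C1galt1* promoter is shown for its base composition, with 82.8% G or C and 44 CpG, where the median promoter of the enzyme genes had 60.2% and 14 and that of all genes 52.4% and 6.
C1galt1, chr6:7844974-7845223, + strand: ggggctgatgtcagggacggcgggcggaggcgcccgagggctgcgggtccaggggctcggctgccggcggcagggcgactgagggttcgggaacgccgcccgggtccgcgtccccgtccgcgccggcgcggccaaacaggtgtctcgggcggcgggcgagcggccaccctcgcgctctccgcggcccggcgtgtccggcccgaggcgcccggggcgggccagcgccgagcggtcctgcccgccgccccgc

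Of the 5 branching genes, *Gcnt2* was called, and *Gcnt4* was called with the replicate block. *Gcnt2* makes the I branches of poly-N-acetyllactosamine chains. It read 13.98, 13.89 and 13.13 on Sox9-GFP high arrays and 12.87, 11.74 and 12.39 on Sox9-GFP low arrays. The lowest Sox9-GFP high array exceeded the highest Sox9-GFP low array, and the difference of 1.33 ± 0.31 (SE) was a fold of 2.52 (adjusted p = 0.0304 from limma). *Gcnt4*, a core 2 branching enzyme, read 6.70, 5.68 and 5.25 against 5.64, 3.90 and 4.79. The sorts overlapped, with the arrays numbered 1 highest in both, and within the numbers the Sox9-GFP high array was higher by 1.07, 1.77 and 0.47. The difference of 1.10 ± 0.45 (SE) had an adjusted p of 0.190 from limma without the block and 0.0206 with it. *Gcnt1*, also a core 2 branching enzyme, differed by -0.20, *Gcnt3* by -0.16 and *Gcnt7* by -0.11, and none of these passed.

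Both *Gcnt2* and *Gcnt4* have a STAT5 motif (TTCNNNGAA, in capitals) in a promoter, and *B3galt5* and *B4galt1*, which were not called, have one too. *Gcnt2* has 3 starts in RefSeq and the motif lies before 1 of them, from base -227, while in *Gcnt4*, with 2 starts, it lies before 1, from base -170 (the base just before the start is -1).
Gcnt2, chr13:40886508-40886757, + strand: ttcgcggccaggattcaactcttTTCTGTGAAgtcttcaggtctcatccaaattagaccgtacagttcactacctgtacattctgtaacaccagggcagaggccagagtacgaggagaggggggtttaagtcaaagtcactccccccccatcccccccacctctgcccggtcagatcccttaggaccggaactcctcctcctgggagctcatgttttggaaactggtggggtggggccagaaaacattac
Gcnt4, chr13:96924094-96924343, + strand: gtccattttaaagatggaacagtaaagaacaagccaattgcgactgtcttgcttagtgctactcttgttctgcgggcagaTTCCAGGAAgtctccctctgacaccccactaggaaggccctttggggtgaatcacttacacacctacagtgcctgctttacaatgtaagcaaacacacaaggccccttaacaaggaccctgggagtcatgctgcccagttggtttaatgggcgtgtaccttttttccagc
STAT5 carries the prolactin signal in mammary epithelium. As background, such motifs occur in 7.02% of all promoters of this length.

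**Figure D2:**
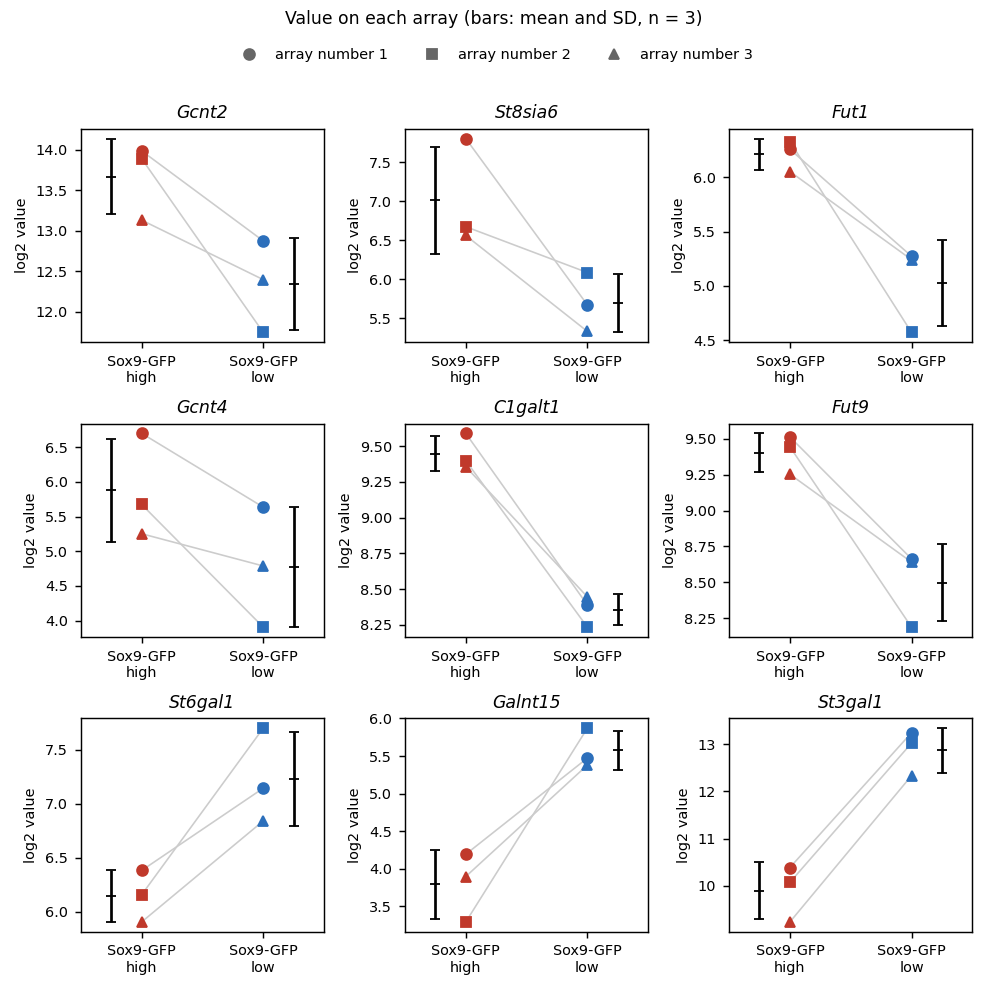
Log2 value on each array (points, with lines joining arrays of the same number) for the 8 called enzyme genes and *Gcnt4*, Sox9-GFP high in red at left and Sox9-GFP low in blue at right, with black bars for mean and SD (n = 3). The sorts overlap only in *Gcnt4*, where the Sox9-GFP low array numbered 1, at 5.64, lies above the Sox9-GFP high array numbered 3, at 5.25.

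None of the 24 chain-extending genes of the *B3gnt*, *B3galt*, *B4galt* and *B4galnt* families passed the test, without or with the block. Over all probe sets 4% were called higher and 3.2% lower, and with the block 6.32% and 4.99%. Below the median on every array lay 4 of 8 *B3gnt*, 3 of 5 *B3galt*, 2 of 7 *B4galt* and 2 of 4 *B4galnt* genes. Differences were positive for 11446 of all 22206 probe sets. All 8 *B3gnt* differences were positive, from 0.02 to 0.54, with overlapping sorts in each. The largest was that of *B3gnt3*, which extends core 1. The gene read 4.90, 6.12 and 4.62 on Sox9-GFP high arrays and 4.68, 4.56 and 4.80 on Sox9-GFP low arrays (adjusted p = 0.427 from limma). The Sox9-GFP high array numbered 2 stood above the other 5 arrays, which lay close together. *B3gnt2*, the main poly-N-acetyllactosamine synthase, differed by 0.33, *B3gnt5*, which starts lacto-series glycolipids, by 0.25 and *B3gnt6*, the core 3 synthase, by 0.18.

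Among the 5 *B3galt* genes the largest difference was that of *B3galt1*, an enzyme of type 1 chains. It read 4.16, 4.34 and 4.04 on Sox9-GFP high arrays and 3.71, 3.64 and 3.75 on Sox9-GFP low arrays. The sorts were apart, but the difference of 0.48 ± 0.17 (SE) did not pass (adjusted p = 0.127 from limma). *B3galt5*, also an enzyme of type 1 chains, did not overlap either, with a difference of 0.44. The other three, which include the ganglioside synthase *B3galt4* and the proteoglycan linker enzyme *B3galt6*, differed by -0.16 to 0.21.

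The 7 *B4galt* genes went both ways. *B4galt4* had the largest difference, with 3.85, 3.69 and 3.83 on Sox9-GFP high arrays and 3.38, 3.66 and 2.63 on Sox9-GFP low arrays. The nearest arrays of the sorts were 0.04 apart, and the difference of 0.57 ± 0.25 (SE) did not pass (adjusted p = 0.234 from limma). *B4galt1*, which joins alpha-lactalbumin to form lactose synthase, read 10.40, 10.13 and 10.06 against 11.07, 10.28 and 10.67. Within each number the Sox9-GFP high array was lower, yet the sorts overlapped and the difference was -0.48 with a 95% interval of -0.97 to 0.02 (adjusted p = 0.266 from limma). *B4galt7*, the other proteoglycan linker galactosyltransferase, did not overlap, at -0.35. *B4galt6*, a lactosylceramide synthase, differed by -0.43, and the other three by -0.06 to 0.27.

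In the *B4galnt* family the largest difference was that of *B4galnt1*, the synthase of the gangliosides GM2 and GD2. It read 9.49, 9.27 and 9.78 on Sox9-GFP high arrays and 10.01, 9.92 and 10.24 on Sox9-GFP low arrays. All Sox9-GFP high arrays were below all Sox9-GFP low arrays. The difference of -0.54 ± 0.19 (SE) did not pass without the block (adjusted p = 0.130 from limma) or with it (0.0672). *B4galnt3* and *B4galnt4*, which form N,N'-diacetyllactosediamine ends, differed by 0.46 and 0.27 and *B4galnt2*, the enzyme of the Sda antigen, by -0.15.

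Of the 17 sialyltransferase genes, 1 was higher and 2 were lower. Over all probe sets 4% were called higher and 3.2% lower. *St3gal1*, which caps core 1 with sialic acid, had the largest difference of all 73 genes. It read 10.39, 10.07 and 9.23 on Sox9-GFP high arrays and 13.25, 13.03 and 12.34 on Sox9-GFP low arrays. The highest Sox9-GFP high array lay well below the lowest Sox9-GFP low array, and within the numbers the differences were -2.86, -2.96 and -3.11. The difference of -2.98 ± 0.32 (SE) was 7.86-fold (adjusted p = 8.36e-04 from limma), with a 95% interval of -3.69 to -2.26. No other *St3gal* gene passed. *St3gal2*, which also acts on core 1, differed by 0.54 with no overlap (adjusted p = 0.165 from limma), and *St3gal5*, the synthase of ganglioside GM3, by 0.57. *St3gal4* and *St3gal6*, enzymes that cap N-acetyllactosamine, differed by 0.47 and -0.40, and *St3gal3* by -0.04.

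*St6gal1*, which adds sialic acid to the galactose ends of N-glycans, read 6.38, 6.16 and 5.91 on Sox9-GFP high arrays and 7.14, 7.70 and 6.84 on Sox9-GFP low arrays. All Sox9-GFP high arrays were lower, and the difference of -1.08 ± 0.24 (SE) was 2.12-fold (adjusted p = 0.0244 from limma). The 4 *St6galnac* genes, which sialylate the first sugar of O-glycans or its ganglioside counterpart, did not pass. *St6galnac2* had the largest difference among them, with 10.64, 10.50 and 10.55 against 10.22, 10.07 and 10.19. Its arrays agreed within 0.2 in each sort and the sorts were apart, but the difference of 0.40 ± 0.16 (SE) fell short of the threshold (adjusted p = 0.180 from limma). *St6galnac1*, the sialyl-Tn synthase, which is next to *St6galnac2* on chromosome 11, differed by 0.35 with overlap.

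The *St8sia* enzymes add sialic acid to sialic acid. *St8sia6*, which acts on O-glycans in mouse, read 7.80, 6.67 and 6.56 on Sox9-GFP high arrays and 5.67, 6.09 and 5.33 on Sox9-GFP low arrays. The sorts did not overlap, and within the numbers the gene was higher by 2.13, 0.59 and 1.23. The difference of 1.32 ± 0.33 (SE) was a fold of 2.49 (adjusted p = 0.0389 from limma). The other five, including the ganglioside GD3 synthase *St8sia1* and the polysialic acid synthases *St8sia2* and *St8sia4*, lay below the median on every array and differed by -0.21 to 0.11.

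All 8 fucosyltransferase genes had differences of 0 or above, and 2 passed the test. Over all 22206 probe sets 11446 differences were positive, and 4% of probe sets were called higher. Of the 8 genes 3 lay below the median on every array. *Fut1*, which makes the H antigen, read 6.26, 6.33 and 6.05 on Sox9-GFP high arrays and 5.27, 4.57 and 5.24 on Sox9-GFP low arrays. The sorts did not overlap, and the difference of 1.19 ± 0.22 (SE) was a fold of 2.27 (adjusted p = 0.0108 from limma). *Fut9*, which makes the Lewis x structure, read 9.51, 9.44 and 9.25 against 8.66, 8.19 and 8.64. Again the sorts did not overlap, and the difference was 0.91 ± 0.19 (SE), a fold of 1.87 (adjusted p = 0.0197 from limma). *Fut2*, the other H antigen synthase, lies on chromosome 7 with 3 genes between it and *Fut1*. It read 3.53, 3.55 and 3.65 against 3.77, 3.29 and 3.66, a difference of 0.00 with a 95% interval of -0.41 to 0.41. *Fut2* lay below the median on every array. *Fut4* and *Fut7*, which take part in making Lewis x type ligands of selectins, differed by 0.05 and 0.06, *Fut8*, the core fucosyltransferase of N-glycans, by 0.21, *Fut10* by 0.23 and *Fut11* by 0.08.

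When single arrays, or both arrays of a number, were left out, *St3gal1*, *C1galt1* and *Galnt15* passed in all 9 fits. *Fut1* passed in 7, and was lost without number 2 (adjusted p = 0.0695 from limma) and without number 3 (0.0575). *Fut9* passed in 3 fits and *Gcnt2*, *St6gal1* and *St8sia6* in 2 each, so that single arrays ended these calls. For *Gcnt2* these were Sox9-GFP high 1 and 2 and Sox9-GFP low 2 and 3 (adjusted p = 0.105, 0.0937, 0.0879 and 0.0755 from limma). For *St8sia6* they were Sox9-GFP high 1 and 2 and Sox9-GFP low 1 and 3 (adjusted p = 0.0746, 0.0533, 0.0905 and 0.123 from limma). *Fut9* was lost without Sox9-GFP high 1 or 2 or Sox9-GFP low 2 (adjusted p = 0.0659, 0.0574 and 0.0632 from limma). *St6gal1* was lost without Sox9-GFP high 2 or 3 or Sox9-GFP low 1 or 2 (adjusted p = 0.0646, 0.0942, 0.0525 and 0.0672 from limma). These fits had no block and fewer arrays, and the directions of all these genes were kept.

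**Figure D3:**
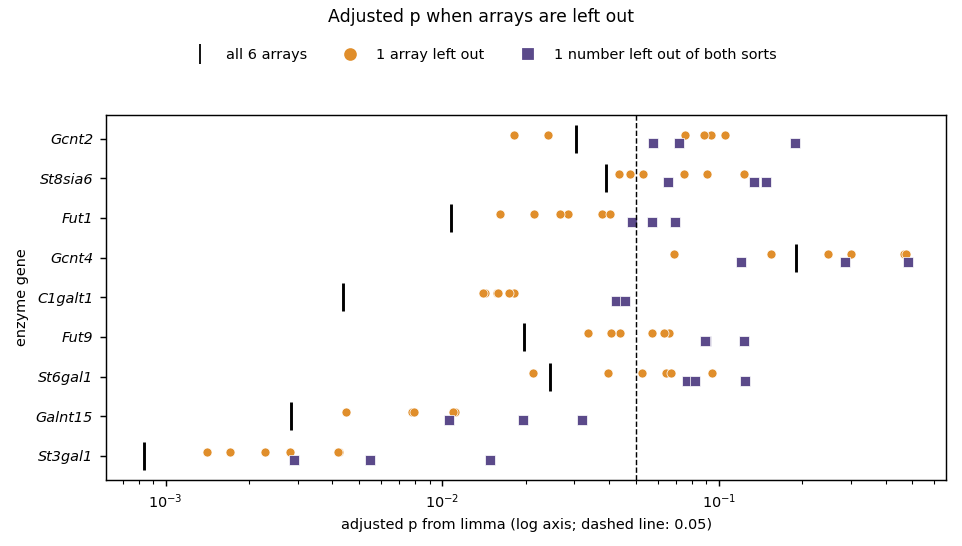
Adjusted p from limma (log axis) for the 8 called enzyme genes and *Gcnt4* with all 6 arrays (black bars), with 1 array left out (orange circles) and with 1 number left out of both sorts (purple squares). All points of *St3gal1*, *Galnt15* and *C1galt1* lie left of the dashed line at 0.05, while *Gcnt2*, *St8sia6*, *Fut9* and *St6gal1* have points on both sides and *Gcnt4*, at 0.190 with all arrays, lies wholly to the right.

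The transferases draw on nucleotide sugars, and 24 of 26 listed genes for making and transporting these were measured. Of these 1 was higher and 4 were lower, with a list median of -0.24. Over all probe sets the shares were 4% higher and 3.2% lower, with a median of 0.01. *Gfpt1*, the first enzyme of the hexosamine pathway, was higher by 0.92 ± 0.21 (SE), with 10.57, 10.15 and 10.20 on Sox9-GFP high arrays and 9.70, 9.31 and 9.14 on Sox9-GFP low arrays (adjusted p = 0.0251 from limma). It did not pass in 7 of the 9 fits with arrays left out, among them those without Sox9-GFP high 1 or 3 or Sox9-GFP low 2 or 3 (adjusted p = 0.0843, 0.0620, 0.0768 and 0.0885 from limma). *Gne*, the first enzyme of sialic acid synthesis, was lower by 1.45 ± 0.19 (SE), with 9.65, 9.33 and 9.80 against 11.27, 10.86 and 11.01 (adjusted p = 0.00239 from limma). *Gnpnat1*, which acetylates glucosamine phosphate in the same hexosamine pathway, fell by 1.08, and *Uap1l1*, a relative of the enzyme that makes UDP-N-acetylglucosamine, fell by 1.91. The call of *Gnpnat1* was lost without number 1 (adjusted p = 0.0552 from limma) and without number 3 (0.0889). The remaining lower gene was *Galt*, an enzyme of galactose use, which fell by 0.72 (adjusted p = 0.0372 from limma). Its call was lost without any single array other than Sox9-GFP low 2 (adjusted p = 0.0584 to 0.118 from limma) and with a trended and robust variance prior (0.0622). *Nans*, *Cmas* and the CMP-sialic acid transporter *Slc35a1*, which act after *Gne*, differed by 0.24, -0.38 and -0.20 and did not pass.

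Genes of the proteins that carry O-glycans were called in a single direction. Of 11 measured mucins and other O-glycosylated carriers 6 were lower in Sox9-GFP high cells and none higher, with a list median of -0.91. Of all probe sets 3.2% were called lower and 4% higher, with a median of 0.01. The membrane mucins *Muc15* and *Muc4* had the largest differences. *Muc15* read 6.08, 6.93 and 6.01 on Sox9-GFP high arrays and 11.06, 11.78 and 10.66 on Sox9-GFP low arrays, 28.4-fold lower (adjusted p = 2.02e-04 from limma). *Muc4* read 4.74, 5.75 and 5.41 against 8.68, 9.62 and 9.83, 16.9-fold lower (adjusted p = 2.96e-04 from limma). The membrane mucin *Muc20* fell by 1.91 and the sialomucin *Podxl* by 1.23. *Muc1* was 2.29-fold lower and *Glycam1*, a mucin-like protein of milk that lay below the median on all 6 arrays, 1.87-fold lower. *Muc1* and *Podxl* each passed in 7 of the 9 fits with arrays left out. Both were lost without number 2 (adjusted p = 0.0524 and 0.0574 from limma) and without number 3 (0.0765 and 0.0864). The call of *Glycam1* was lost without Sox9-GFP high 1 or 3 or Sox9-GFP low 1 or 3 (adjusted p = 0.0835, 0.0843, 0.0821 and 0.0869 from limma). It was also lost without number 1 or 3 (adjusted p = 0.185 and 0.219 from limma). Of 4 genes listed beside *B4galt1* for lactose synthesis (*Lalba*, *Slc2a1*, *Pgm1* and *Hk2*) 2 were lower. *Lalba*, which encodes alpha-lactalbumin, read 12.90, 12.52 and 9.38 on Sox9-GFP high arrays and 16.70, 16.46 and 14.44 on Sox9-GFP low arrays. The arrays numbered 3 were the lowest of both sorts, and the gene was 19.2-fold lower (adjusted p = 0.0153 from limma), with 8.91 to 31.5-fold when arrays were left out. The call was lost without Sox9-GFP low 2 (adjusted p = 0.0551 from limma) and without number 2 (0.0791). With all 6 arrays it was lost under a trended and robust variance prior (adjusted p = 0.120 from limma). The glucose transporter *Slc2a1* fell by 1.07, and its call was lost without number 2 (adjusted p = 0.0604 from limma) and without number 3 (0.0972).

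In the other lists at most 1 gene each was called, where 4% of all probe sets were called higher and 3.2% lower. Of 14 other O-glycan and terminal transferases *Tmtc1*, an O-mannosyltransferase, was lower by 0.85 and no other was called. *Tmtc1* passed in 4 of the 9 fits with arrays left out. Its call was lost without Sox9-GFP low 1 or 2 (adjusted p = 0.0534 and 0.0518 from limma) and without number 1, 2 or 3 (0.117, 0.106 and 0.0768). Of 12 N-glycan trimming and branching genes *Mgat5*, which forms a branch on complex N-glycans, was higher by 0.66 (adjusted p = 0.0447 from limma) but did not pass in any of the 9 fits with arrays left out, where its adjusted p was 0.0670 to 0.259, with quantile normalization (0.0547) or with a trended and robust variance prior (0.0886). Of 11 carbohydrate sulfotransferases *Chst1*, which sulfates galactose, was the single called gene. It read 5.10, 4.05 and 5.06 on Sox9-GFP high arrays and 8.38, 8.17 and 7.49 on Sox9-GFP low arrays, 9.73-fold lower (adjusted p = 5.54e-04 from limma). None of 6 genes for sialidases and sialic acid O-acetylation passed, with differences of -0.45 (*Neu1*) to 0.29 (*Casd1*). *Dcn*, the single called gene of 6 fibroblast markers, was lower by 2.22, in the direction of the lower genes of these lists. The median difference of the 6 markers was 0.08, and 3 of them lay below the array median on every array. The log2 of their summed signal was 9.31 to 10.2 on Sox9-GFP high and 11.5 to 12.0 on Sox9-GFP low arrays. The part of fibroblasts in these lists was not tested.

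**Figure D4:**
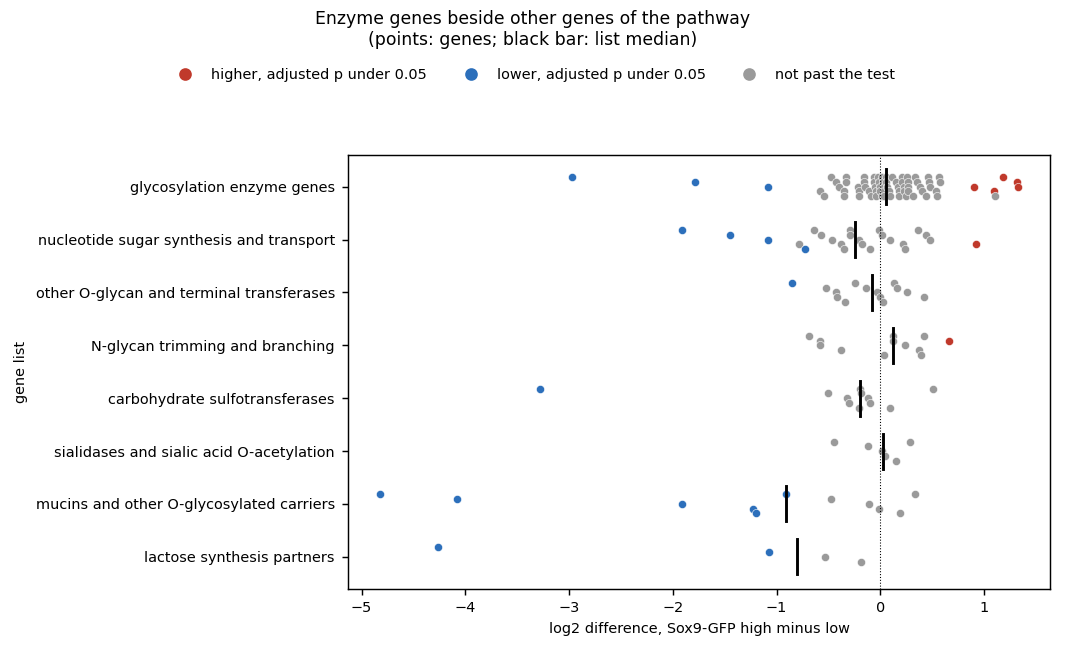
Difference in log2 value, Sox9-GFP high minus Sox9-GFP low, for each gene (points, red higher and blue lower by limma, grey not past the test) of the 73 enzyme genes and of 7 lists of related genes, with list medians as black bars. The enzyme genes centre on 0.05, and 6 of the 11 mucins and carriers lie among the blue points, down to -4.83 for *Muc15*.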

How the data were processed

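RNA from 3 Sox9-GFP high and 3 Sox9-GFP low sorts was labelled with biotin and hybridised to one-colour arrays. The values the authors deposited are on a log2 scale, 1 for each probe set and array. For the study's other array experiment the methods name the Transcriptome Analysis Console and Clariom S Pico arrays, and they do not state separately what was used for these arrays. Probe sets were named from the platform annotation (19572 named, 2634 not), and 1 probe set with the highest mean stood for a gene. No enzyme gene had several. All probe sets were tested with limma 3.58.1 in R 4.3.3 (lmFit and eBayes, two-sided, no block, since the study's statistics name an unpaired test) with Benjamini-Hochberg adjustment at 0.05. A fold is 2 to the power of a difference. Same-numbered arrays deviated together from their sorts (r = 0.236, 0.232 and 0.218 across probe sets), so an alternative fit treated the numbers as pairs. With 3 arrays per sort, their number limits the precision. The enzyme genes and lists were chosen with earlier results of these data known. Genes given in full were those called without or with the block and, in families without any, the gene with the largest difference. Of each related list, up to 4 called genes were named. *Galnt3*, *Galnt5*, *Galnt10*, *C1galt1c1*, *B4galt1*, *Fut2*, *Nans*, *Cmas*, *Slc35a1*, *Galt*, *Muc1*, *Glycam1*, *Neu1* and *Casd1* were added after their values were seen. limma was tested on simulated data. Alternatives were the replicate block, quantile normalization, median centring, a filter on the dimmest 33% of probe sets, array weights, a robust prior with a trend, left-out arrays and numbers, the methods' t-test and the mean over probe sets.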

Additional observations from a re-analysis of the deposited data

How the results depend on the processing

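With the replicate block 6 enzyme genes were higher (*Gcnt4* in addition) and 3 lower, and the block changed no other call of an enzyme gene. All 8 calls of enzyme genes stood under quantile normalization, centring, the filter on dim probe sets, the trended and robust prior, which added *Galnt5* to make 4 lower genes, and array weights. With the methods' t-test 7 enzyme genes were higher and 6 lower before adjustment, and 0 and 0 after Benjamini-Hochberg, where 1 probe set of all was higher and 2 were lower. Leaving out arrays gave 1 to 5 higher and 2 to 3 lower genes. The 8 called genes and *Gcnt4* kept their direction in all 9 fits with arrays left out and under quantile normalization, centring and array weights. The other settings leave the difference as it is. The trended and robust prior ended the calls of *Lalba*, *Galt*, *Mgat5* and *Krt17*. No detection call was used, so which dim values exceed background is unknown.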
